A study of Drosophila melanogaster with 12 samples.

Results

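Small RNAs of ovaries that carried an added Y chromosome from the Congo strain were compared with those of ovaries that carried an added Y chromosome from the Ohio strain. The comparison used the 4 XXYcongo and XXYohio ovary libraries of the 12 libraries in the study, 2 per genotype. It covered every row of the ovary table except the spike-in controls, which left 962 of 968 rows. Of these, 791 had a mean value of at least 5 over the 6 ovary libraries and were tested, and the other 171 never exceeded 12.0 in any ovary library.

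The study sequenced small RNAs of Drosophila melanogaster ovaries and testes from controls and from flies with an extra Y chromosome of either origin. Both ovary groups compared here were X^X females, with Yohio added in one group and Ycongo in the other. The labels give the treatment only as genetic manipulation, and do not state the origin of the autosomes or how many ovaries went into a library. Every group was kept on molasses food at 23 °C, with light for 14 hours a day, and was taken at an age of 2 days as 2 biological replicates. X^X ovaries without an added Y, written XX below, are given as a reference level. The table heads the Yohio libraries with "Cs", which the labels do not spell out, so each XXYohio value rests on that reading. The authors' own contrasts set each added Y against its control, and the 2 Y chromosomes are set directly against each other here.

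In the Drosophila ovary, Piwi-interacting RNAs (piRNAs) silence transposons. They come from piRNA clusters in the germline and in the follicle cells around it, and most are antisense to the transposons that they target. The Y chromosome is a large block of heterochromatin that is rich in transposons and satellites. It carries its own array of ribosomal RNA genes and the Suppressor of Stellate repeats, which are a source of piRNAs in the testis. The table gives no read lengths, so piRNAs, siRNAs and pieces of longer RNAs were counted together, and fewer cells of a type cannot be told apart from less small RNA per cell.

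The XXYcongo libraries were deeper than the XXYohio libraries, at 2663239 and 2427476 against 1537728 and 1114251 reads outside the spike-ins. Spike-in reads were 6.35% and 16.3% of the reads in XXYohio and 14.5% and 7.66% in XXYcongo. The spike-in mixture also differed by replicate number, and the first control of the set made up 38.6% and 51.4% of spike-in values in the first replicates but 0.0469% and 0.633% in the second. Replicates of 1 group differed by more than sampling noise, with a chi-square per degree of freedom of 53.3 in XXYohio and 121 in XXYcongo. Values below are the authors' normalised read values, in which 1 read was worth between 0.387 and 0.734 in these 4 libraries.

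Most small RNA features had higher values in XXYcongo. With limma on log2(value + 1) and Benjamini-Hochberg adjustment, 355 of 791 features rose (44.9%) and 33 fell (4.17%) at an adjusted p under 0.05, and these are the calls referred to below. The median log2 difference over all tested features was 0.83. The falls numbered 12 without the first XXYohio library and 21 without the second. Both XXYcongo libraries were above both XXYohio libraries for 448 features and below both for 137, so that the groups did not overlap for 74% of features. The size of this general shift depended on how the libraries were scaled. After TMM scaling, which sets the bulk of the features equal between libraries, the median difference was 0.15, and 142 features rose (18%) and 164 fell (20.7%). A difference is therefore given below both as deposited and, where it matters, after TMM scaling. Across the deposited values and the TMM, median-of-ratios, non-spike total and snoRNA total scalings, 136 features rose in every fit (17.2%) and 15 fell in every fit (1.9%). With the libraries scaled to the spike-ins, 54 features rose and each of them was a tRNA entry, while none fell by limma. No feature outside the tRNA entries was called on that scale, although 9 TE features had an unadjusted p under 0.05 by limma. The median difference there was still 0.78 for TE and -0.76 for snoRNA features, and 0.49 over all features. The factors of that scale, relative to the deposited values, were 2.38 and 0.891 in the XXYohio libraries and 0.818 and 1.60 in XXYcongo.

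**Figure D1:**
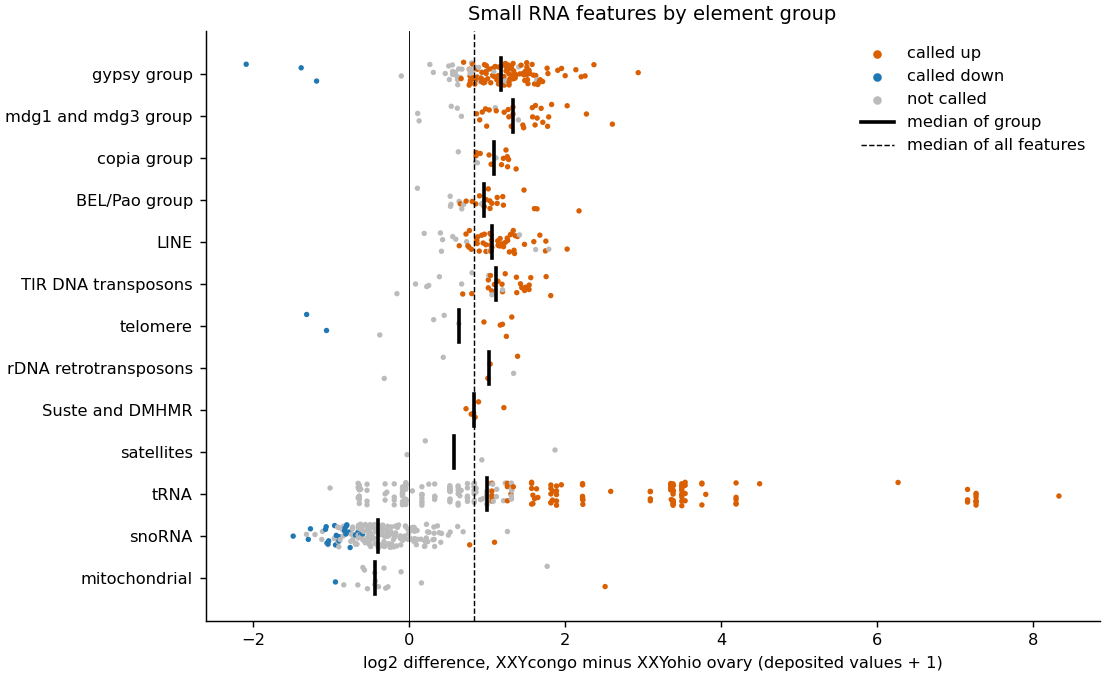
Log2 difference between XXYcongo and XXYohio ovary (horizontal axis, deposited values plus 1) for each tested feature, by element group (vertical axis; points are spread vertically at random), with 2 libraries per genotype. Orange points were called up, blue points called down and grey points not called, a thick bar marks the median of each group, and the dashed line marks the median of all features at 0.83; the transposon groups lie mostly to the right of 0, the snoRNA group has a median of -0.41, and the tRNA group reaches 8.34.

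The composition of the libraries differed between the 2 genotypes. Transposon and repeat rows (TE) took 26.1% ± 4.45 of the non-spike values in XXYohio and 43.8% ± 2.32 in XXYcongo (SD, n = 2). The 45S ribosomal RNA precursor took 56.1% ± 6.64 in XXYohio and 36.8% ± 0.423 in XXYcongo. The tRNA share was 7.32% ± 1.94 and 10.7% ± 2.97, and the snoRNA share was 9.05% ± 0.00702 and 6.60% ± 1.12, in the same order. The TE, rRNA and snoRNA shares did not overlap between the genotypes, while the tRNA share did. An exact permutation test of 2 against 2 cannot reach a p under 0.05, so no test of the shares was made. With the 45S rows left out of the total, the TE share was 9.92 percentage points higher in XXYcongo rather than 17.7, and the tRNA share 0.409 points higher rather than 3.38. The snoRNA difference was then -10.4 points rather than -2.45. With identical rows summed once, the tRNA share was 0.796 points higher.

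The tRNA entries held the features with the largest differences, and proline tRNAs led them. Transfer RNAs carry amino acids to the ribosome, and their fragments are a common part of small RNA libraries. Of 229 tested tRNA entries, 99 rose and none fell, with 130 not passing. The rises were 43.2%, near the 44.9% of all features. Identical gene copies share their reads, and counted as distinct value profiles 33 of 73 rose, against 45.8% of all distinct profiles. By limma 119 tRNA entries had an unadjusted p under 0.05, in either direction, and 4 entries fell when the second XXYcongo library was left out. After TMM scaling 65 tRNA entries rose and 37 fell. These were 28.4% and 16.2%, against 18% and 20.7% of all features. Under the count tests edgeR and DESeq2, 71 and 75 tRNA entries rose and 38 fell in each. Over all 791 features these tests gave 149 and 155 rises and 164 and 180 falls.

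Each of the 5 proline profiles tested was high in XXYcongo and low in both XXYohio and XX. tRNA:Pro-CGG-3-1 was at 0 in both XXYohio libraries and at 229 and 455 in XXYcongo, with 6 and 1.40 in XX. The XXYcongo mean was at least 174-fold higher than a floor of 3 reads per XXYohio library. tRNA:Pro-AGG-1-1, which has 6 further identical copies, had 1.72 and 0.734 in XXYohio and 241 and 466 in XXYcongo. These were 3 and 1 reads against 624 and 1056, a ratio of 269 with an exact 95% counting interval of 105 to 987. The XX libraries, at 3 and 3.50, sat with XXYohio.

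tRNA:Pro-CGG-2-1 had 1.15 and 2.20 in XXYohio and 329 and 429 in XXYcongo, a ratio of 233 with a counting interval of 99.7 to 719. tRNA:Pro-CGG-1-1 had 4.59 and 2.20 against 234 and 455, a ratio of 95.1 with a counting interval of 53.0 to 191. The intervals cover counting error only. The gap between the genotypes was far wider than that between the replicates in each case. tRNA:Pro-TGG-1-1 had the highest starting level, with 49.4 and 44.1 in XXYohio, 712 and 1066 in XXYcongo, and 98 and 66.4 in XX. Its log2 difference was 4.19 ± 0.30 (standard error of the fit, limma adjusted p = 3.05e-07). The other 4 had fitted differences of 6.27 to 8.34, which depend on the pseudocount, with limma adjusted p between 2.4e-07 and 3.84e-07. The profiles of Pro-AGG, Pro-CGG-1 and Pro-CGG-3 had nearly equal values in each XXYcongo library, so they may count many of the same reads and are not independent observations. Every proline profile was called up under TMM scaling as well. Proline tRNAs made up 0.578% and 0.353% of the summed tRNA profile values in XXYohio and 9.86% and 10.9% in XXYcongo. These shares add the profiles as separate values, so reads that several profiles have in common may be counted repeatedly.

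Glycine tRNAs followed. tRNA:Gly-GCC-1-1 had 146 and 176 in XXYohio, 992 and 3341 in XXYcongo, and 104 and 158 in XX. Its log2 difference was 3.50 ± 0.44 (limma adjusted p = 6.09e-05). The groups did not overlap, but the XXYcongo libraries differed from each other by more than those of XXYohio did. tRNA:Gly-GCC-2-1 had 60.3 and 96.2 against 926 and 3273, a log2 difference of 4.50. Together these took 2.10% and 1.95% of tRNA profile values in XXYohio and 10.8% and 25.2% in XXYcongo. Both Gly-GCC profiles had nearly equal values in each XXYcongo library, so they may count many of the same reads. The joint share adds them as separate values, and may count such reads repeatedly. tRNA:Gly-TCC-1-1 had 8.61 and 5.14 in XXYohio and 63.0 and 66.2 in XXYcongo, a log2 difference of 3.09 ± 0.50.

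The tRNAs described here, those of proline and glycine included, were chosen after values of these data were seen. tRNA:Ala-CGC-1-1 had 5.74 and 8.08 in XXYohio and 121 and 90.5 in XXYcongo. tRNA:Trp-CCA-2-1 had 25.8 and 19.8 against 414 and 146. All 3 Arg-TCG profiles rose, by 3.35 to 3.39 on the log2 scale, each from 8 and 3 reads in XXYohio. They had nearly equal reads in each of the XXYohio and XXYcongo libraries, so they may count the same reads and are not independent observations. tRNA:Ser-AGA-1-1 rose by 3.81 from 10 and 1 reads in XXYohio. The initiator methionine profiles (iMet-CAT), which start translation, rose by 1.89 and 2.59. The first was not called after TMM scaling, at 1.24, nor without either XXYohio library or the second XXYcongo library, and the second was not called without the second XXYcongo library. Among glutamine tRNAs, 3 of 4 Gln-CTG profiles rose, and tRNA:Gln-CTG-2-1 went from 100.4 and 101 to 402 and 319.

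Abundant tRNAs differed among themselves. tRNA:His-GTG-1-1 and its 4 identical copies had 664 and 1218 in XXYohio and 1670 and 2110 in XXYcongo, with 1622 and 1194 in XX. Its log2 difference of 1.06 was called as deposited, but not after TMM scaling, at 0.37, nor without the first XXYohio library. tRNA:Ala-AGC-2-1 had 2274 and 2282 in XXYohio and 2309.5 and 2112 in XXYcongo, and tRNA:Ala-AGC-1-1 had nearly the same values. Their log2 differences were -0.04 and -0.04, neither called, and after TMM scaling both were called down, at -0.74 and -0.73. None of 5 glutamate profiles was called, and tRNA:Glu-CTC-1-1, at 736 and 1895 in XXYohio against 1359.8 and 2125 in XXYcongo, overlapped between the groups. None of 4 lysine profiles was called as deposited, with differences from -0.64 to -0.07, and 3 of them were called down after TMM scaling. Alanine therefore held both kinds of profile, with Ala-CGC high in XXYcongo and Ala-AGC level.

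**Figure D2:**
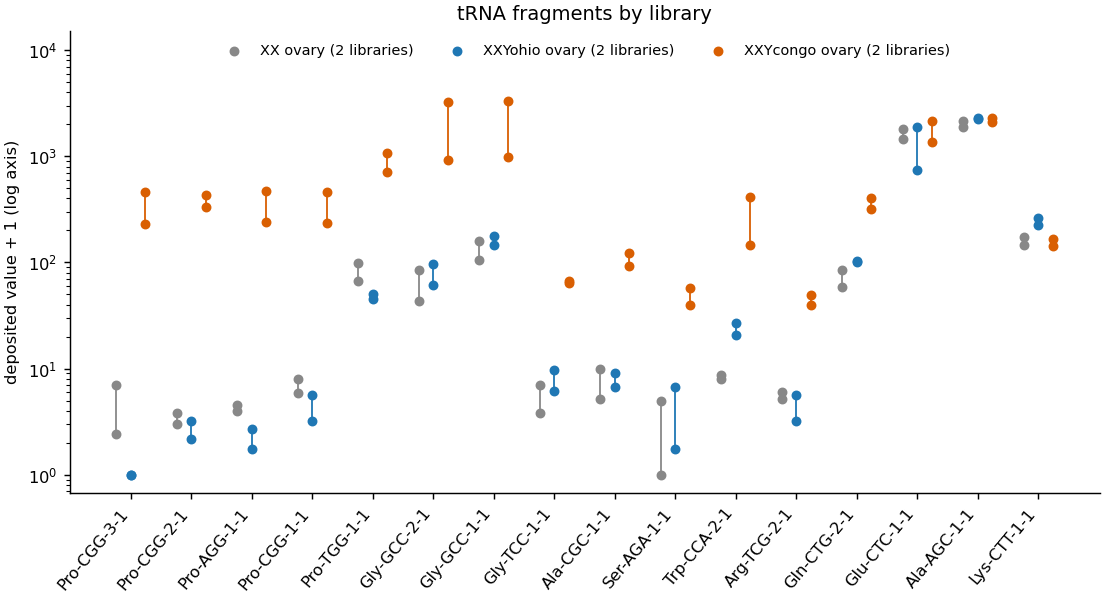
Deposited values plus 1 (vertical log axis) of 16 tRNA entries in XX (grey), XXYohio (blue) and XXYcongo (orange) ovary, where each point is 1 library and a line joins the 2 libraries of a genotype. Proline entries sit between 0 and 98 before the addition of 1 in XX and XXYohio and between 229 and 1066 in XXYcongo, while Ala-AGC-1-1 lies between 1877 and 2308 in each genotype.

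Transposon small RNAs were mostly higher in XXYcongo, in LTR, LINE and DNA elements. The TE class counted here also holds other repeats, such as the Responder satellite (RSP). Of 339 tested TE features, 247 rose, 5 fell and 87 did not pass, with a median log2 difference of 1.10 against 0.83 over all features. The rises were 72.9% of TE features against 44.9% of all features, and the falls 1.47% against 4.17%. After TMM scaling 76 rose and 6 fell, with a median of 0.43, and the rises were 22.4% against 18% of all features, a share close to the background. In every one of the 5 scalings 72 TE features rose and 5 fell. Leaving out the first XXYohio library reduced the rises from 247 to 175 and the falls from 5 to 3.

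LTR retrotransposons move through an RNA copy and are flanked by long terminal repeats. In the gypsy group, 103 of 135 tested features rose and 3 fell, with a median of 1.18, and 38 rose and 3 fell after TMM scaling. Its members with an envelope gene, and their close relatives, gave 36 rises and 3 falls among 48. These were 75.0% and 6.25%, against 44.9% and 4.17% of all features. After TMM scaling 13 of them rose (27.1%, against 18%) and 3 fell (6.25%, against 20.7%). In the mdg1 and mdg3 group 28 of 35 rose and none fell, with a median of 1.33, and 15 rose after TMM scaling. The copia group had 12 rises among 16 features and the BEL/Pao group 19 among 28, with 1 and 3 after TMM scaling. The BEL/Pao rises numbered 12 without the first XXYohio library. None of the features of these last 3 groups was called down on either scale. As deposited, the rises were 76.3% of the gypsy group, 80.0% of the mdg1 and mdg3 group, 75.0% of the copia group and 67.9% of the BEL/Pao group, against 44.9% of all features. After TMM scaling they were 28.1%, 42.9%, 6.25% and 10.7% in that order, against 18% of all features, so that copia and BEL/Pao features were below the background on that scale.

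The widest rise outside tRNA was that of GYPSY2_LTR on the Minus strand, the terminal repeat of a gypsy-group element. It had 23.5 and 28.6 in XXYohio, 242 and 175 in XXYcongo, and 26 and 25.9 in XX. The log2 difference was 2.94 ± 0.32 (limma adjusted p = 2.8e-05), and XXYcongo stood apart from both other genotypes. QUASIMODO_LTR Minus, of another gypsy-group element, had 129 and 141 in XXYohio and 695 and 562 in XXYcongo, with 119 and 108 in XX. QUASIMODO2-LTR_DM Minus had 45.3 and 33.8 against 219 and 195. Their log2 differences were 2.21 ± 0.26 and 2.37 ± 0.29.

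The retrotransposon DM412, of the mdg1 group, was among the largest rises in both its parts. DM412_I Minus, its internal part, had 2512 and 3386 in XXYohio, 12175 and 8795 in XXYcongo, and 3641 and 3441 in XX. DM412_I Plus had 242 and 233 against 911 and 1033. DM412_LTR Plus had 7.46 and 11.7 against 49.5 and 49.0, and DM412B_LTR Plus had 4.02 and 8.08 against 44.5 and 36.2. The log2 differences ran from 1.83 to 2.61, and each of these 4 rows was called up under all 5 scalings and with any 1 library left out. MDG1_I Minus, of the element mdg1 itself, had 1195 and 1588 against 5333 and 4171.

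TABOR_I Minus and INVADER1_LTR Minus, also of gypsy-group elements, rose by 1.91 and 1.95, and TRANSPAC_LTR, GYPSY6_LTR and GYPSY10_I rose on the Plus strand by 2.26, 2.14 and 2.00. Each of these 5 was also called in all 5 scalings. DOC5_DM Plus, of a LINE element, rose by 2.03 ± 0.39, from 8.03 and 10.3 to 42.9 and 37.5. Some of the largest rises rested on few reads in XXYohio. DM412B_LTR Plus had 7 and 11 reads there, and the counting interval of its ratio was 4.32 to 12.1. TLD3 Plus had 1.72 and 12.5 against 32.1 and 32.7, and was not called after TMM scaling or without the first XXYohio library, where its log2 difference was 1.31 rather than 2.46. BATUMI_LTR Plus, of a BEL/Pao element, had 4.59 and 0 against 9.28 and 10.2, a ratio of 3.76 with a counting interval of 1.76 to 9.21, and was likewise not called after TMM scaling. Without the second XXYohio library, the one at 0, its log2 difference was 0.94 rather than 2.18, and it was also not called without either XXYcongo library, at 2.24 and 2.12.

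Of the 8 LTR features with the highest levels in their lists, DM412_I Minus is described above and the other 7 rose by 0.85 to 1.37. STALKER4_I Minus, of the mdg1 group, had 5728 and 6898 in XXYohio and 14965 and 16713 in XXYcongo, a log2 difference of 1.33 ± 0.20. MAX_I Minus, of a BEL/Pao element, had 11845 and 13813 against 23002 and 23241, a difference of 0.85. ROO_I Minus, of the abundant BEL/Pao element roo, rose by 1.06. DM297_I Minus and NOMAD_I Minus, of gypsy-group elements, rose by 0.93 and 1.14. COPIA_DM_I Minus and DM1731_I Minus, of the copia group, rose by 1.37 and 1.26. Of these 7, STALKER4_I and COPIA_DM_I were still called after TMM scaling, at 0.64 and 0.68.

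LINE elements, which are retrotransposons without terminal repeats, gave 47 rises and no fall among 58 tested features, with a median of 1.06, and 7 rises after TMM scaling. The rises were 81.0% against 44.9% of all features as deposited, and 12.1% against 18% after TMM scaling. DMRT1B Minus, the highest of them, had 14060 and 15656 in XXYohio and 25751 and 24943 in XXYcongo, against 10048 and 8652 in XX. Its difference of 0.77 was close to the median of all features and was 0.08 after TMM scaling (limma adjusted p = 0.723). FW Minus, of the F element, rose by 1.04, and by 0.34 after TMM scaling, where it was not called. DNA transposons with terminal inverted repeats gave 22 rises among 32, with a median of 1.12, and 9 rises and 1 fall after TMM scaling, or 68.8% and 28.1% rises in turn. The TMM fall was FB4_DM Plus, of a foldback element, which had 169 and 151 in XXYohio and 126 and 161 in XXYcongo, values that overlapped. It is named because it was the only one.

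INE-1, a Helitron-related repeat listed as DNAREP1_DM, had 45.9 and 49.9 on the Minus strand in XXYohio and 169 and 132 in XXYcongo, against 119 and 95.1 in XX. XXYohio was therefore the low group for this row, and XXYcongo was nearer to XX. The log2 differences were 1.62 ± 0.29 on the Minus strand and 1.33 ± 0.29 on the Plus strand. After TMM scaling they were 0.93, which was called, and 0.64, which was not (limma adjusted p = 0.0513).

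Against this rise, 3 internal parts of gypsy-group elements fell on their Plus strand. TOM_I Plus had 84.4 and 107 in XXYohio, 16.6 and 27.8 in XXYcongo, and 60 and 107 in XX. It fell by 2.09 on the log2 scale (SE 0.38, limma adjusted p = 0.000673), and the groups did not overlap. The table used here holds no tested Minus row of TOM_I. TABOR_I Plus fell from 121 and 165 to 48.3 and 59.1, with 103 and 157 in XX. TIRANT_I Plus, of an element with an envelope gene, fell from 341 and 399 to 177 and 147. It was lower still in XX, at 139 and 106, so that XXYcongo lay near XX and XXYohio above both. All 3 falls were called under each of the 5 scalings and with any 1 library left out, and none was called on the spike-in scale.

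As deposited, both strands of an element mostly rose. Both strands were tested for 160 elements, and both rose for 107 of them. Of single TE features, 72.9% rose as deposited and 22.4% after TMM scaling, against 44.9% and 18% of all features. Joint calls were not counted after TMM scaling. The Minus strand alone rose for 21 and the Plus strand alone for 5, while neither was called for 24. Minus-strand values exceeded Plus-strand values for 128 elements in XXYohio and 132 in XXYcongo. The median log2 ratio of Minus to Plus was 1.41 and 1.45 in XXYohio and 1.46 and 1.55 in XXYcongo, and 1.29 and 1.25 in XX. The median shift per element was 0.11 towards the Minus strand, and 0.03 without the first XXYcongo library. The ratio moved towards Minus for 91 elements and towards Plus for 69, and the libraries of the 2 genotypes did not overlap for 51 and 31 of these. The library medians did not overlap between the genotypes, although the nearest were 1.45 and 1.46, and the shift was not tested.

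TABOR_I stood furthest from this pattern, because its strands were called in opposite directions. Its Minus strand rose from 1457 and 2127 to 7571 and 5752 while its Plus strand fell, and the log2 ratio of Minus to Plus went from 3.58 and 3.68 in XXYohio to 7.26 and 6.58 in XXYcongo. The ratio in XX was 4.23 and 3.51, near that of XXYohio. The next shifts were those of TIRANT_I and of GYPSY2_LTR. TIRANT_I Minus was low, at 5.17 and 16.9 against 18.6 and 31.3, and was not called. GYPSY2_LTR Plus had 10.3 and 5.87 in XXYohio and 19.7 and 11.9 in XXYcongo, and was not called. MDG1_I had a level Plus strand, at 105 and 137 against 134 and 128, beside its raised Minus strand. These shifts were picked by their size, and no test of their own was made.

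**Figure D3:**
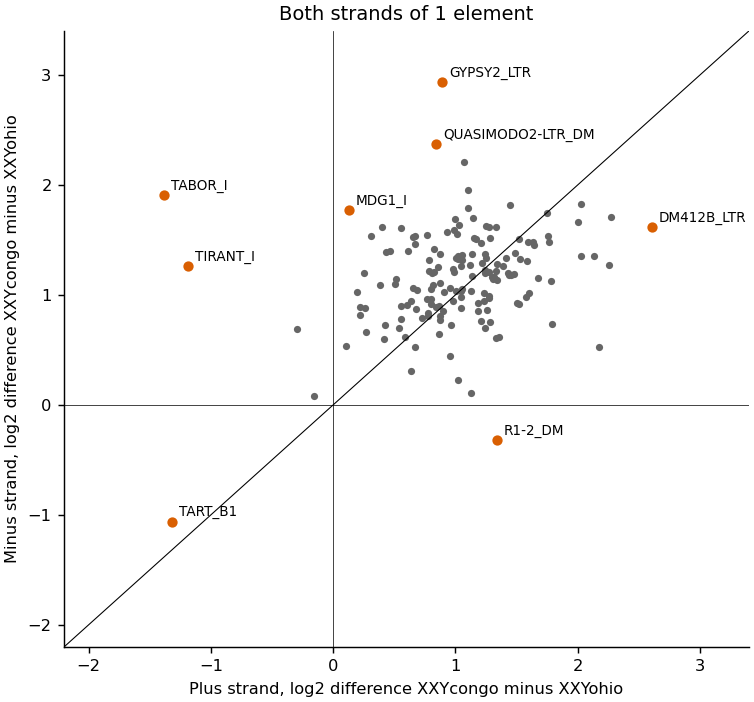
Log2 difference between XXYcongo and XXYohio ovary on the Plus strand (horizontal axis) against that on the Minus strand (vertical axis) for the 160 elements with both strands tested, each point being 1 element and the diagonal marking equal differences. Most points lie above 0 on both axes; TABOR_I sits at -1.39 and 1.91, TIRANT_I at -1.19 and 1.26, and TART_B1 at -1.32 and -1.06, and the 8 labelled elements are in orange.

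Elements known for piRNAs of follicle cells (ZAM, Idefix, gypsy, Gtwin, Tabor, Quasimodo and Stalker4) gave 23 rises and 1 fall among 28 tested features, with a median of 1.20. Elements known for germline piRNAs (HeT-A, TART, TAHRE, roo, DM1731, Burdock, Rt1b and Doc) gave 16 rises and 2 falls among 24, with a median of 1.00. After TMM scaling these became 9 and 1 for the first list and 4 and 2 for the second. The rises were 82.1% and 66.7% of these lists as deposited, against 44.9% of all features, and 32.1% and 16.7% after TMM scaling, against 18%. The first list had 14 rises without the first XXYohio library, and the second list then had no fall. The difference between the lists was not tested. The first list does not hold every element with an envelope gene. Those elements and their close relatives gave 36 rises and 3 falls among 48, and TIRANT_I Plus was among the falls. ZAM_I Minus, at 112 and 134 in XXYohio and 416 and 309.8 in XXYcongo, rose by 1.54 and was called under all 5 scalings. ZAM_I Plus differed by 0.31 and was not called.

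Telomeres of Drosophila are built by the retrotransposons HeT-A, TAHRE and TART. Of 11 tested telomere features, 5 rose, 2 fell and 4 did not pass, with a median of 0.64. The rises were 45.5%, near the 44.9% of all features, and the median was below the 0.83 of all features. HETA Plus had 749.5 and 955 in XXYohio, 2342 and 1897 in XXYcongo, and 1462 and 1222 in XX. It rose by 1.32 ± 0.23 and was called in all 5 scalings. HETA Minus, TAHRE Minus and TAHRE Plus rose by 1.17, 1.20 and 1.25, and these were not called after TMM scaling. Values in XX lay between the Y genotypes for HETA and for TAHRE Minus.

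The TART rows were described separately because a variant of the element went the other way. TART Minus had 1099.6 and 1429.8 in XXYohio and 1899 and 1541 in XXYcongo, and both were far below XX at 4174 and 4474. Its difference of 0.45 did not pass (limma adjusted p = 0.113), and it was -0.25 after TMM scaling and 0.61, called up, with the snoRNA total. TART Plus rose by 0.96, from 706 and 911 to 1963 and 1239, with 2447 and 2256 in XX. Its call was lost without the first XXYcongo library, at 0.63, and without the first XXYohio library, at 0.77. TART_B1, a variant of TART, was the one element that fell on both strands. TART_B1 Plus fell from 313 and 198 to 127 and 77.7, by 1.32 on the log2 scale (SE 0.32, limma adjusted p = 0.00425). TART_B1 Minus fell from 345 and 249 to 162 and 121, by 1.06. Both falls were called in all 5 scalings, and both were lost when the first XXYohio library was left out, at -0.99 and -0.83. The 2 falls among the 6 telomeric-class entries are a duplicate listing of the same values.

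**Figure D4:**
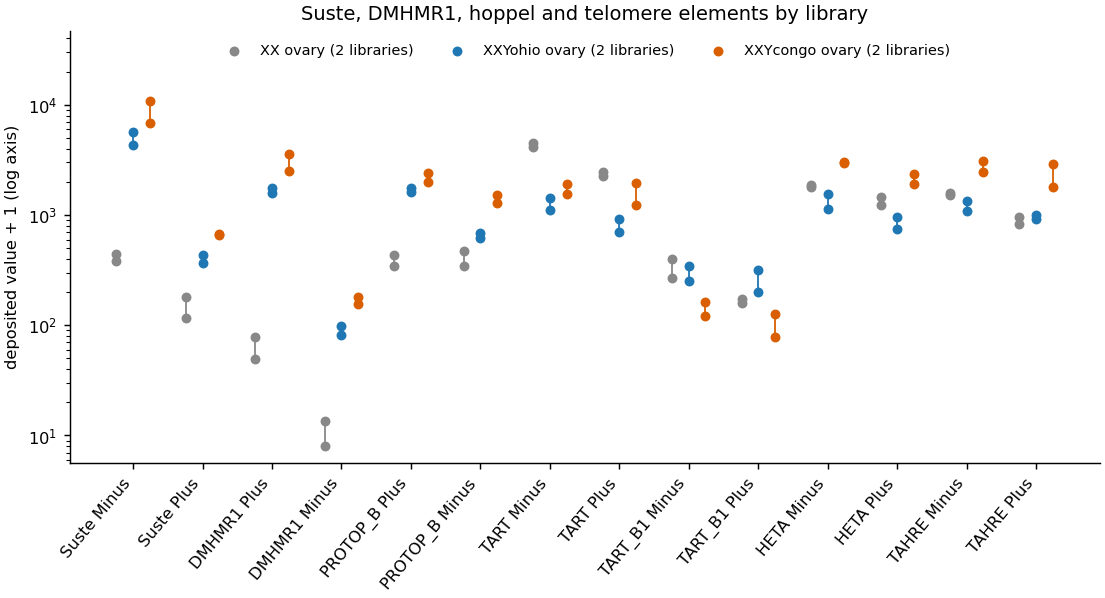
Deposited values plus 1 (vertical log axis) of Suste, DMHMR1, PROTOP_B and telomere elements by strand in XX (grey), XXYohio (blue) and XXYcongo (orange) ovary, where each point is 1 library and a line joins the 2 libraries of a genotype. Suste Minus lies at 381 to 440 in XX and at 4291 to 10817 in the Y genotypes, TART Minus lies highest in XX, and TART_B1 is lowest in XXYcongo.

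Suste, the Suppressor of Stellate repeat of the Y chromosome, was high in both genotypes with an added Y. Suste Minus had 4291 and 5726 in XXYohio and 6842 and 10817 in XXYcongo, against 440 and 381 in XX. The groups did not overlap, and XXYcongo was higher by 0.80 ± 0.25 on the log2 scale (limma adjusted p = 0.0201). Suste Plus had 368 and 433 against 653 and 672, a difference of 0.73 (limma adjusted p = 0.0402). These differences were close to the 0.83 of all features. After TMM scaling they were 0.10 and 0.04, with limma adjusted p of 0.73 and 0.899, so a difference in Suste beyond the general shift was not detectable. Suste Minus was also not called without the first XXYohio library, at 0.59, or without the second XXYcongo library, at 0.46. Suste Plus was not called when any of the 4 XXYohio and XXYcongo libraries was left out, at 0.61 to 0.85.

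The same held for DMHMR1, a repeat with values far above XX in both Y genotypes. DMHMR1 Plus had 1586 and 1765 in XXYohio and 2533 and 3566 in XXYcongo, against 78 and 48.9 in XX. DMHMR1 Minus had 80.9 and 97.7 against 178 and 154. The differences were 0.85 and 0.89 as deposited and 0.15 and 0.20 after TMM scaling, where neither was called. Of all features, 44.9% rose as deposited and 18% after TMM scaling. All 6 tested Suste and DMHMR rows rose as deposited, with a median of 0.84, and none was called after TMM scaling. Leaving out 1 of the 4 libraries left 1 rise without the first XXYohio or the second XXYcongo library, 3 without the second XXYohio library and 4 without the first XXYcongo library. DMHMR1 Plus was then at 0.60 and above, and DMHMR1 Minus at 0.75 and above.

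The hoppel elements, which are DNA transposons listed as PROTOP, PROTOP_A and PROTOP_B, gave 5 rises among 6 rows (83.3%, against 44.9% of all features). Their Minus strands rose by 1.04, 1.06 and 1.09. Their Plus strands differed by 0.69, 0.80 and 0.39, and that of PROTOP_B, at 1626 and 1757 against 2012 and 2428, did not pass. The Plus strands of these elements were already above XX in XXYohio, with PROTOP_B Plus at 432 and 347 in XX. None of the 6 rows was called after TMM scaling, where 18% of all features rose. The calls of PROTOP Plus and PROTOP_A Plus were lost without the first XXYohio library, at 0.48 and 0.62, and without the second XXYcongo library, at 0.43 and 0.61, which left 3 rises.

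R1 and R2 are retrotransposons that insert into the 28S ribosomal RNA genes. R1_DM had 5178 and 5890.4 on the Minus strand in XXYohio and 13066 and 9840.1 in XXYcongo, against 6742 and 6515 in XX. It rose by 1.04 on the Minus and 1.01 on the Plus strand, and neither was called after TMM scaling. R2_DM Minus rose by 1.39, from 109 and 131 to 339 and 293, and R2_DM Plus differed by 0.44 without passing. Of 6 tested rDNA element rows 3 rose, and 1 rose after TMM scaling. These were 50% and 16.7%, near the 44.9% and 18% of all features. The ribosomal RNA precursor itself went the other way. 45S_rDNA Plus had 536658 and 420808 in XXYohio and 375811 and 397678 in XXYcongo, a difference of -0.30 that did not pass as deposited (limma adjusted p = 0.16) and was -0.99 after TMM scaling (0.0129) and -0.60 with the non-spike total (0.00891). Without the second XXYohio library it was called down at -0.47 (limma adjusted p = 0.0294), and without the first it was -0.12. 45S_rDNA Minus had 103 and 86.7 against 244 and 95.8 and did not pass. It was called up without the second XXYcongo library, at 1.36 (limma adjusted p = 0.00135), and was 0.02 without the first.

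Satellite repeats were scarce, and 4 of the 8 rows listed were tested, with none called. RSP Minus, of the Responder satellite, had 5.74 and 8.08 in XXYohio and 12.0 and 3.53 in XXYcongo. The dodeca satellite had 14.3 and 55.8 against 38.7 and 28.2. AAGAG Minus was at 0 in both XXYohio libraries, with floors of 1.72 and 2.20, and at 12.4 and 0 in XXYcongo. Without the second XXYcongo library, the one at 0, AAGAG Minus was called up, at a log2 difference of 3.74 that depends on the pseudocount (limma adjusted p = 0.000306; 0.161 to 1 without each other library). It stood at 45 and 32.9 in XX, so both Y genotypes were low. The XXYohio and XXYcongo values overlapped for each of these 3 rows.

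Small nucleolar RNAs, which guide chemical changes of ribosomal RNA, had lower values in XXYcongo than other features. Of 194 tested snoRNA features 25 fell, 2 rose and 167 did not pass, with a median of -0.41. The falls were 12.9% against 4.17% of all features. After TMM scaling 107 fell and none rose by limma, so that falls were 55.2% against 20.7% of all features, and 8 fell under all 5 scalings. The count of 25 was 9 without the first XXYohio library and 13 without the second, and 3 snoRNAs were called with any 1 library left out. Both XXYcongo libraries were below both XXYohio libraries for 102 snoRNAs and above them for 9, against 137 and 448 of all 791 features. Scaling to the snoRNA total itself gave a median of 0.99 over all features.

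snoRNA:Me28S-G2017 had 2593 and 2419.7 in XXYohio and 1432 and 1179 in XXYcongo, against 2702 and 2168 in XX. It fell by 0.95 (SE 0.22, limma adjusted p = 0.00335), and XXYohio sat with XX. snoRNA:Me28S-A2113 had 1132 and 1052 against 620.4 and 508, and snoRNA:Or-CD12 had 479 and 669 against 169 and 312. snoRNA:Me28S-G3255b and snoRNA:Me28S-G3113b fell by 1.27 and 0.94, and the first was lost without the first XXYohio library, at -1.16, and the second without the second XXYohio library, at -0.86. By the target that the symbol names, 12 of 49 guides of 28S methylation fell, 3 of 18 guides of 18S methylation, 3 of 49 guides of 28S pseudouridylation and 0 of 23 guides of 18S pseudouridylation. After TMM scaling these counts were 30, 11, 23 and 10, and the medians of the 4 kinds as deposited lay between -0.47 and -0.35. Over all 194 tested snoRNAs 25 fell as deposited and 107 after TMM scaling. Those were 12.9% and 55.2%, against 4.17% and 20.7% of all features. The 2 rises, named because there were only 2, were snoRNA:Me28S-A2564 at 0.77 and snoRNA:Me18S-G1358b at 1.09, and neither was called after TMM scaling. The U3 snoRNAs, which act in rRNA processing and are near-identical copies, were the highest. snoRNA:U3:54Ab had 4946 and 5411 against 7199 and 4906 and was not called, and snoRNA:U3:9B overlapped likewise.

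Mitochondrial features were few, with 17 tested, a median of -0.43, 1 rise and 1 fall. Each was 5.88%, against 44.9% rises and 4.17% falls over all features. The rise, mt:tRNA:Lys-CTT, went from 13.2 and 13.2 to 55.7 and 115, with 15 and 58.0 in XX. The fall, mt:ND3, a subunit of complex I, went from 30.4 and 32.3 to 18.2 and 13.7, with a limma adjusted p of 0.0498. Both are named because they were single. The mt:ND3 fall was lost without either XXYohio library and without the second XX or XXYcongo library. Mitochondrial rises numbered 2 without either XX library, without the first XXYohio library and without the first XXYcongo library, and falls numbered 2 without the second XXYcongo library. mt:CoI and mt:ATPase8, the highest rows, did not pass as deposited, at -0.54 and -0.66, and were called down after TMM scaling, at -1.23 and -1.35. Without the second XXYcongo library mt:ATPase8 was called down at -1.25 (limma adjusted p = 0.00197), and without the first it was -0.07. Without the first XXYohio library the differences of mt:CoI and mt:ATPase8 were -0.30 and -0.30. After TMM scaling 11 mitochondrial features fell, or 64.7% against 20.7% of all features.

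**Figure D5:**
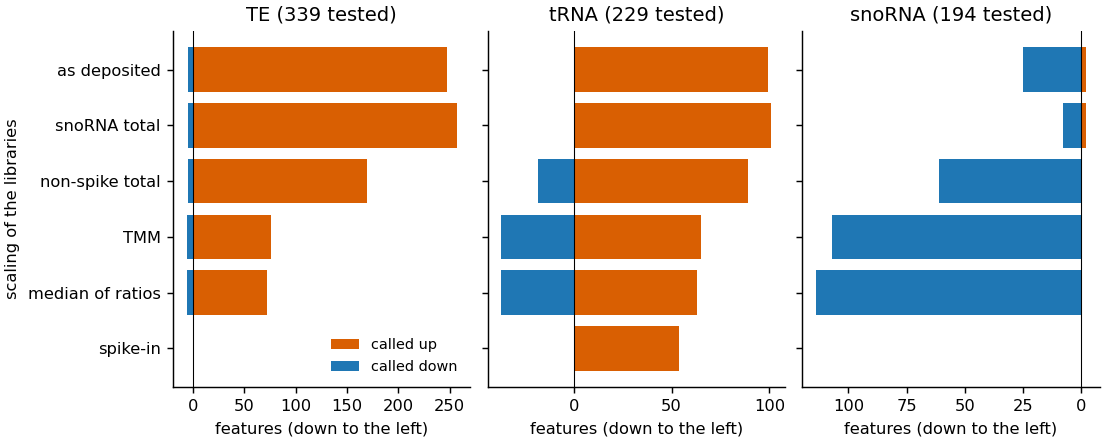
Number of TE, tRNA and snoRNA features called up (orange, to the right) and down (blue, to the left) in XXYcongo against XXYohio ovary (horizontal axis, features) under 6 scalings of the libraries (vertical axis), with 2 libraries per genotype. TE rises go from 247 as deposited to 76 under TMM and 0 under spike-in scaling, tRNA rises go from 99 to 65 and 54, and snoRNA falls go from 25 to 107 and 0.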

How the data were processed

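Ovary libraries were made with 15 PCR cycles and read for 50 cycles, per the labels' protocols. Trim Galore and Bowtie 1.1.1 were used, per the submitters' processing notes. No source used here gives the genome build, how reads with several matches were counted, or where the scale factors came from, and coordinates are left out. The ovary values came as 1 table from the authors. Its first XX column holds whole read counts as deposited, and the other 5 columns hold a normalised signal that the authors deposited as reads times 1 factor per library, since dividing by that factor made 100% of the values whole (tolerance 0.01 of a read).

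Differences were fitted with limma 3.58.1 in R 4.3.3 (eBayes with trend) on log2(value + 1), a scale that understates changes of low features. The 6 ovary libraries of the 3 genotypes entered 1 model without covariates, with 3 residual and 9.59 prior degrees of freedom. Two-sided tests were run where the mean was at least 5, with Benjamini-Hochberg adjustment over 791 features. A ± beside a log2 difference is its standard error. The recovered reads were also tested with edgeR 4.0.16 (149 up, 164 down) and DESeq2 1.42.0 (155 up, 180 down). Scripts were tested on simulated data.

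Named features were fixed elements (Suste, DMHMR1, PROTOP, telomere and rDNA elements, INE-1, 45S, RSP, AAGAG) and the 2 highest rows of each list. From called features outside tRNA, snoRNA and mitochondrial rows came the 15 largest rises and up to 15 largest falls. The called falls there were 5 TE and 2 telomeric-class rows. From called tRNA, snoRNA and mitochondrial rows came the 5 distinct value profiles of smallest p in each direction. The features, lists and this rule were chosen with earlier results of these data known. FlyBase identifiers of 566 entries were matched to symbols, all of them, in the BDGP6.54 annotation. Alternatives were other scalings, pseudocounts, filters, tests, a replicate block, and leaving out each library.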

Additional observations from a re-analysis of the deposited data

How the results depend on the processing

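The deposited values gave 355 rises and 33 falls (median log2 difference 0.83). Rises and falls numbered 142 and 164 with TMM (median 0.15), 136 and 171 with median-of-ratios (0.085), 263 and 91 with the non-spike total (0.53), 368 and 15 with the snoRNA total (0.99), 54 and 0 with spike-ins (0.49), 149 and 164 with edgeR (0.18), and 155 and 180 with DESeq2 (0.12). At spike-in scaling 76 features had an unadjusted p under 0.05. Other pseudocounts, filters, the limma fit without trend, the fit of 4 libraries and identical rows counted once gave 311 to 364 rises and 30 to 49 falls. With 1 library left out, rises ran from 263 to 366, falls from 12 to 40 and the median from 0.66 to 0.98. The lowest of each came without the first XXYohio library, and falls numbered 21 without the second.

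The TE share difference ran from 14.5 to 20.8 points with 1 library left out, that of tRNA from 1.28 to 5.47, that of snoRNA from -3.24 to -1.65, that of rDNA from -24.0 to -14.6, and the strand shift from 0.030 to 0.15. Without the 45S rows the shares differed by 9.92 (TE), 0.409 (tRNA) and -10.4 points (snoRNA), and with identical rows summed once the tRNA share differed by 0.796.

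Deviations of same-numbered libraries correlated at -0.04, -0.01 and 0.23, the last between XXYohio and XXYcongo. The spike-in mixture did go with replicate number. Its first control was 29.8%, 38.6% and 51.4% of spike-in values in the first XX, XXYohio and XXYcongo replicates. In the second replicates it was 0.0374%, 0.0469% and 0.633%. Pairing by replicate number was therefore not settled. A replicate block gave 389 rises and 51 falls, 154 and 179 with TMM (median 0.15), and 18 and 0 with spike-in scaling (0.49). Among the satellites the block called AAGAG Minus up at 1.87 (limma adjusted p = 0.0388).

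Of 74 named features, 60 were called and 34 were called under all 5 scalings. Many of them were named because they were called, so these counts are not support. Among all 791 tested features 388 were called (49.1%), and 136 rose and 15 fell under all 5 scalings. Reversed directions, none of them called, follow as log2 differences. TMM, with and without the block, gave PROTOP_B Plus -0.31, R2_DM Plus -0.25, TART Minus -0.25, PROTOP Plus -0.0082, the dodeca satellite -0.46, U3:54Ab -0.49 and U3:9B -0.38. edgeR gave -0.31, -0.24, -0.23, -0.0051, -0.69, -0.45 and -0.32 in that order. Median-of-ratios gave -0.37, -0.31, -0.31, -0.071, -0.52, -0.56 and -0.44, with 45S_rDNA Minus at -0.059 and Suste Plus at -0.028. DESeq2 gave -0.37, -0.31, -0.30, -0.063, -0.76, -0.52 and -0.39, with Suste Plus at -0.027. Non-spike total scaling gave dodeca -0.090 and U3:54Ab -0.11, and spike-in scaling, with and without the block, dodeca -0.12, U3:54Ab -0.15 and U3:9B -0.030. snoRNA total scaling gave RSP Minus 0.10, Ala-AGC-2-1 0.12 and Ala-AGC-1-1 0.12, and a pseudocount of 5 gave RSP 0.022. With 1 library left out, RSP Minus ran from -0.79 to 0.73, dodeca from -0.74 to 1.15, Ala-AGC-2-1 from -0.11 to 0.020, Ala-AGC-1-1 from -0.10 to 0.025, U3:54Ab from -0.077 to 0.48 and U3:9B from -0.0067 to 0.64. The cause of these changes was not tested. Depth limits features of few reads, such as BATUMI_LTR Plus, whose ratio had a counting interval of 1.76 to 9.21.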
